A study of Mus musculus with 3 samples.

Results

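Hepatocyte-like cells made from fibroblasts (iHep) were set against freshly isolated primary mouse hepatocytes (PH), gene by gene, on 1 expression array each. The pair are 2 of the 3 arrays of the study, chosen by their sample titles, and both were read in the same scan. The iHep sample came from mouse spleen fibroblasts remodelled by SiO2 that received the lentivirus LV-3TF, which carries 3 transcription factors the labels do not name, and was collected after 14 days of culture following transduction. The PH sample served the study as positive control, and no culture time is given for it. The third array, MF, holds the same kind of fibroblast with the control lentivirus LV-NC, also after 14 days, and was scanned apart. MF is used below as the fibroblast reference for iHep and PH, and it is not the cell before transduction. Each array pools RNA from 5 samples, per the series' design text, and every sample is labelled female. With 1 pooled array a side there is no replicate, so no error between samples, p-value or test can be given, and each difference is between these 2 arrays.

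Levels below are log2 signals relative to the 75th percentile of the array's own spots, so a level of 0 is a spot at that percentile, and a difference is iHep minus PH on the log2 scale. A difference of 1 is 2-fold, the size fixed here for calling a gene higher or lower. Where a gene was well above background on 1 array alone, its difference is a bound, written "at least", set by the dimmest signal that passed on the other array. Probe brightness depends on the probe, so levels are compared between arrays for 1 gene and not between genes. The 20577 named genes included 16360 above background on iHep and 17379 on PH, and no spot was saturated. Probes printed in several copies varied by an SD of 0.096 on iHep and 0.115 on PH, which is the printing and reading error only. Different probes of the same gene disagreed far more, with a pooled SD of the difference of 1.09 over 3879 genes, and 159 of those genes had probes 2-fold apart in opposite directions.

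The labels were checked first. On PH, which is labelled female, 4 Y-linked genes were above background: Eif2s3y read 1.64, Ddx3y -0.26, Uty -3.57 and Kdm5d -5.94. None of them was above background on iHep or MF. Xist, transcribed from the silenced X in female cells, read -2.44 on MF and was not above background on either PH or iHep. The PH array therefore goes against its label of sex, and part of the sex-linked difference below cannot be told apart from it. The female label of iHep is not borne out by Xist, whose difference from MF was at least -4.89, and no Y-linked gene goes against that label. Why iHep and MF differed in Xist was not tested. The PH array also held transcripts of cells other than hepatocytes, given below with the other cell types.

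Hepatocytes are the parenchymal cells of the liver. They secrete most plasma proteins, make bile acids, turn ammonia into urea, keep blood glucose up between meals and clear drugs and hormones through cytochrome P450 and conjugating enzymes. This programme is held by a network of transcription factors, among them HNF4A, the FOXA family and C/EBPα, which bind each other's genes as well as those of the functions they serve. Adult hepatocytes rarely divide, whereas fetal hepatoblasts divide and make alpha-fetoprotein.

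Of 17996 genes above background on at least 1 of the arrays, 6478 (36.0%) were at least 2-fold lower in iHep, 4183 (23.2%) at least 2-fold higher and 6820 (37.9%) within 2-fold, while 515 (2.86%) had a bound too short to place them. Differences of 8-fold or more were found for 2353 genes (13.1%) on the lower side and for 825 (4.58%) on the higher side. Among genes that differed, 39.2% were higher in iHep, but this split moved to 54.8% with quantile normalization of both arrays and to 55.7% in the authors' processed values. The median difference of all genes was -0.3, and 0.2 after quantile normalization, so small shifts of a list are read against that. The 726 genes listed for hepatocyte functions stood well below all genes. The 703 of them that could be compared had a median of -4.01: 562 were lower in iHep, 405 of them by 8-fold or more, 99 lay within 2-fold and 42 were higher. With quantile normalization the same genes had a median of -3.56.

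**Figure D1:**
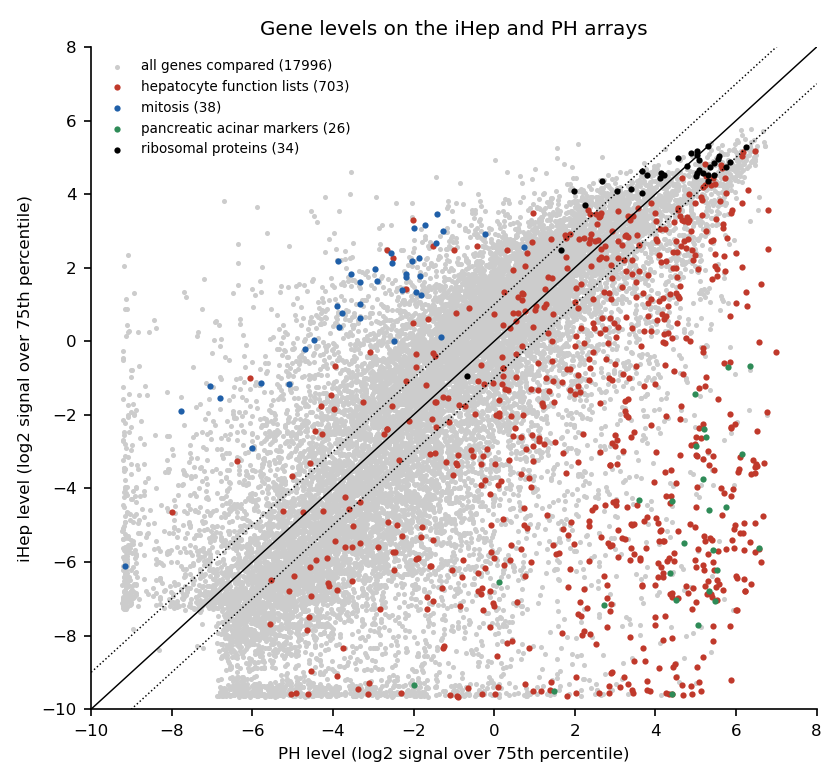
Each point is a gene, with its level on the PH array on the horizontal axis and on the iHep array on the vertical axis, both as log2 signal over the array's 75th percentile; the solid line marks equal levels and the dotted lines 2-fold. Hepatocyte genes (703) fall to the lower right, mitosis genes (38) to the upper left, and ribosomal protein genes (34) lie along the line of equal levels.

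The secreted proteins were furthest from the hepatocyte level: plasma serpins, major urinary proteins and plasma carriers had the lowest medians of the hepatocyte lists. Alb, which encodes albumin, read 6.67 on PH, -4.75 on iHep and -5.2 on MF, so iHep stood near the fibroblast reading and 11.42 log2 units below hepatocytes. Afp, its fetal counterpart on the same chromosome, went the other way, at -2.8 on PH, 1.73 on iHep and -2.61 on MF. Fgb, the fibrinogen beta chain, read 6.19 on PH and -5.67 on iHep, and Serpina1a, an alpha-1-antitrypsin, 6.7 and -3.31. The promoters of these 4 genes are shown because Alb, Fgb and Serpina1a were missed in iHep while Afp was exceeded, and all 4 hold the same short motif, the letters GTTAAT. Sequences are from RefSeq on GRCm38.p6, from 250 bases before to 50 after the start of transcription, in the direction of the gene. They lie at chr5:90460620-90460919 on the plus strand, chr3:83049814-83050113 on the minus strand, chr12:103863570-103863869 on the minus strand and chr5:90490464-90490763 on the plus strand, and capitals mark the motif on either strand.
Alb: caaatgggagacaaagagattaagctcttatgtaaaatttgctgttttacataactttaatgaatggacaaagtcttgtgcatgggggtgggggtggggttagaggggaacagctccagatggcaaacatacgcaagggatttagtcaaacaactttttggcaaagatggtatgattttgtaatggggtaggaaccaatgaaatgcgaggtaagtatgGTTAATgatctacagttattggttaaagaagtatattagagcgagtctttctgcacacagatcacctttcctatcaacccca
Fgb: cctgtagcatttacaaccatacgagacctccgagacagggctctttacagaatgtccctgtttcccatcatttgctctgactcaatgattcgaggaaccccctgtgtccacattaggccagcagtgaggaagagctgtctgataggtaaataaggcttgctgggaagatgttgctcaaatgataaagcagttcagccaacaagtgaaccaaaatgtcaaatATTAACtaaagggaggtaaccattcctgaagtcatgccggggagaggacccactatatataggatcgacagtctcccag
Serpina1a: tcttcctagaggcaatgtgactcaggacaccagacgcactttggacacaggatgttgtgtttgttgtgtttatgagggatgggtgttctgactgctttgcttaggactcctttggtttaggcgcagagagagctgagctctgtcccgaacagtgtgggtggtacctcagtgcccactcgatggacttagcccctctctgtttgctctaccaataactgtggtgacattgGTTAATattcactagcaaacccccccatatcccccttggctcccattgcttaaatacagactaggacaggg
Afp: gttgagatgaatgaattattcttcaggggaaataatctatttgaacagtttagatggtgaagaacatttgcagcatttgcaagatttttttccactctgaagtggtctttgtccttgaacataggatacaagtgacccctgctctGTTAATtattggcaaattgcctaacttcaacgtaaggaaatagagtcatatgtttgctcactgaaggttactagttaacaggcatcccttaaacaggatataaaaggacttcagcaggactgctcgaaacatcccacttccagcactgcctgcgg
Each promoter holds 1 match, which begins 32 bases before the start in Alb, 29 before it in Fgb, 21 before it in Serpina1a and 105 before it in Afp. The letters occur in 2332 of the 32851 promoters of the table (7.1%). For the plasma protein lists, the table held a promoter for 82 of their 111 compared genes, and 30 of the 82 (36.6%) held the letters. Among all genes compared, the letters occurred in 948 of 14237 promoters (6.7%). Genes without a promoter in the table are outside both shares, and any link of the letters to the differences was not tested. A match is a description of the sequence and says nothing of binding in these cells.

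All 30 plasma carriers and binding proteins listed were lower in iHep, 28 by 8-fold or more, with a median of -9.75. Transthyretin (Ttr), the carrier of thyroxine and retinol-binding protein, read 6.48 on PH and -5.72 on iHep. The adhesion protein vitronectin (Vtn) read 6.23 and -6.8, a difference of -13.03. Some carriers stood between fibroblast and hepatocyte. The vitamin D-binding protein Gc read -6.57 on MF, -0.02 on iHep and 6.57 on PH. Rbp4, which carries retinol, read -2.96, 2.04 and 5.49 in the same order, and the copper oxidase ceruloplasmin (Cp) -1.73, 2.37 and 5.48. The chemerin gene Rarres2 read -0.62, 3.49 and 5.87, the smallest gap of the list at -2.38. The iHep reading of these 4 genes was above that of MF, by 6.56 for Gc, 5 for Rbp4, 4.1 for Cp and 4.1 for Rarres2, and below that of PH. The Gc reading on MF lay below the lowest accepted level there, -6.3, so the size of its gap over MF is not measured. Transferrin (Trf) differed from them, at 2.83 on MF, 2.5 on iHep and 6.79 on PH.

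Of 15 plasma serpins, inhibitors of proteases, 14 were compared and all were lower, with a median of -10.03. Serpina3k had the lowest measured difference on the array, -13.35, from 6.03 on PH to -7.31 on iHep. In coagulation, 20 of 21 genes were lower by 8-fold or more. Plasminogen (Plg) read 5.52 on PH and -6.49 on iHep. The remaining gene, coagulation factor X (F10), was within 2-fold at 5.24 on PH and 4.82 on iHep, but it read 4.63 on MF and its probes disagreed, with differences from -13.14 to -0.42. All 21 complement genes were lower. C3, the central component, read 1.51 on MF, 1.57 on iHep and 6.63 on PH. Mannose-binding lectin Mbl2 and factor I (Cfi) were not above background on iHep and lower by at least 12.75 and 12.74 log2 units.

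Of 26 apolipoprotein and lipoprotein genes listed, 25 were compared, 21 of them lower and 4 within 2-fold. Apoa1, the main protein of high-density lipoprotein, read 4.48 on PH and was not above background on iHep or MF, a difference of at least -11.81. Apoe read 5.23 on MF, -0.28 on iHep and 6.98 on PH, so iHep was the lowest of the 3. Among the genes at the hepatocyte level were the lipase regulators Angptl4, at 3.61 on iHep and 3.56 on PH, and Angptl8, at 0.73 and 0, and the lipoprotein receptor Scarb1, at 3.58 and 4.57. Angptl4 read 0.8 on MF. Apoa2 illustrates how far a call can rest on 1 probe, since its brightest probe differed by -3.22 and another by -12.71.

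Acute phase proteins were lower for 20 of 23. Serum amyloid Saa1 read 6.77 on PH and -1.91 on iHep, and haptoglobin (Hp) 6.53 and -2.43. Lipocalin Lcn2 was closer, at -2.21 on MF, 1.92 on iHep and 3.28 on PH. Socs3, which restrains the cytokine signal that drives these genes, was within 2-fold at 3.41 and 3.32. The major urinary proteins, pheromone carriers made in the mouse liver, were lower for all 7 compared of 9 listed, with a median of -9.87; they are close copies of each other, so probes may share signal among them.

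**Figure D2:**
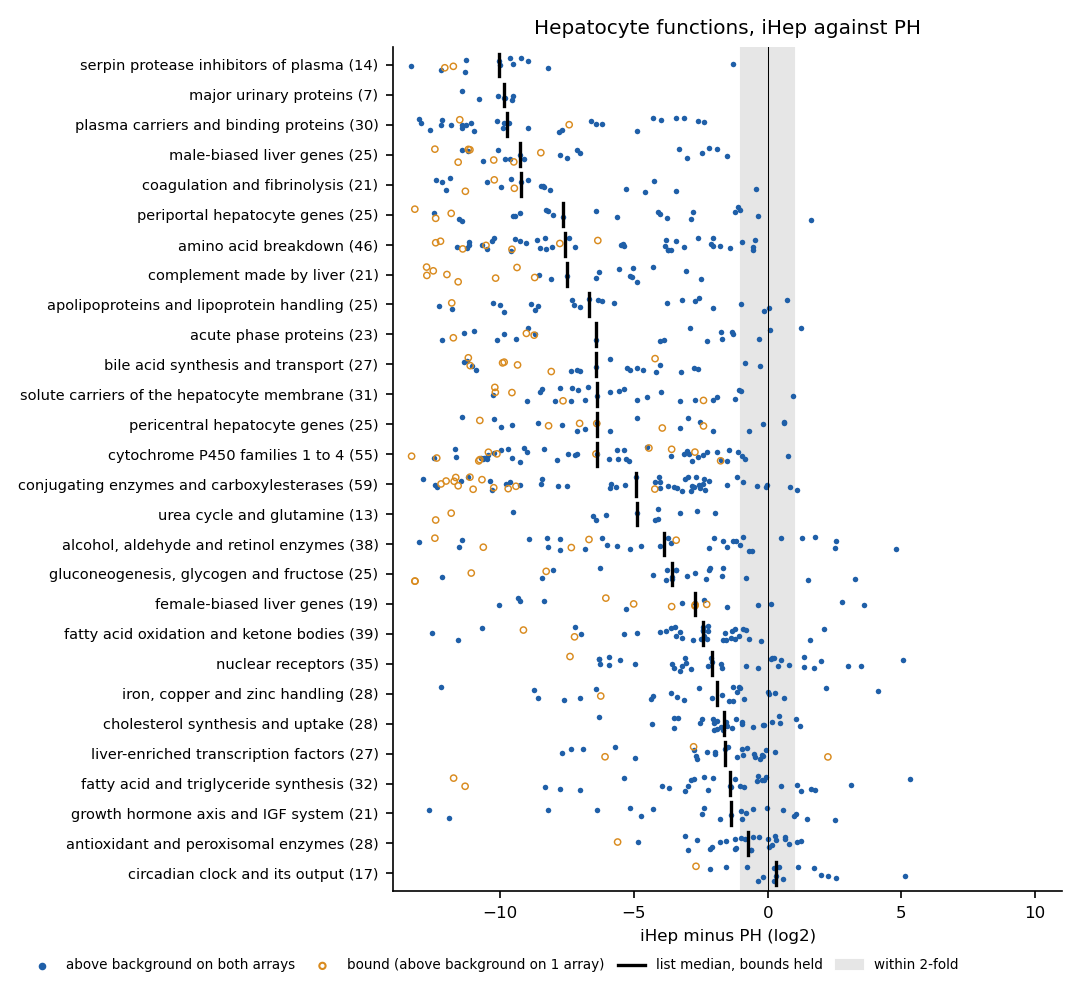
Each row is a list of hepatocyte genes with the number compared, each point a gene's difference between iHep and PH (log2), open points are bounds and black bars medians with bounds held. The plasma serpins lie furthest left, at a median of -10.03, while antioxidant enzymes (-0.75) and the circadian clock (0.32) reach the grey band of 2-fold.

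Drug, steroid and bile acid enzymes were nearly all below the hepatocyte level. Of 60 cytochrome P450 genes listed, 55 were compared, 52 were lower in iHep and 3 within 2-fold. Cyp2e1, which oxidises ethanol and acetaminophen, read 5.93 on PH, -4.03 on iHep and -5.02 on MF. Cyp3a11, the main drug-metabolising P450 of mouse liver, was raised over the fibroblasts but not to the hepatocyte level: it was not above background on MF, and read -1.28 on iHep and 5.09 on PH. Cyp2a12 was not above background on iHep and lower by at least 13.31. The 3 at the hepatocyte level were Por, the shared electron donor of these enzymes, at 4.7 on iHep and 5.64 on PH, the aryl hydrocarbon receptor target Cyp1a1 at -1.73 and -0.88, and Cyp4f16. Of these Cyp1a1 was not above background on MF, whereas Por read 4.49 there. Conjugating enzymes and carboxylesterases were lower for 53 of 59, with Ces3a at -12.44. Gstm2 at 3.41 and 3.44 and Ugdh at 2.88 and 3.28, on iHep and PH, were among the 5 within 2-fold.

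Bile acid synthesis and transport was lower for 25 of 27 genes. Cyp7a1, the rate-limiting enzyme of the classical route, read -0.4 on PH and -6.29 on iHep. The bile salt export pump Abcb11 read 5.96 and -5.11. Cyp39a1, an oxysterol 7-alpha-hydroxylase, was within 2-fold at 0.93 on iHep and 1.24 on PH, and read -2.19 on MF. Slc10a1, the bile salt uptake carrier, was also within 2-fold by its brightest probe, at 4.79 and 5.62, but that probe read 5.99 on the fibroblasts and other probes differed by as much as -9.57. Solute carriers of the hepatocyte membrane were lower for 30 of 31, the exception being the widely used amino acid carrier Slc38a2 at 3.47 and 2.53.

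All 13 genes of the urea cycle and glutamine handling were lower. Arg1, which releases urea, read 5.09 on PH and was not above background on iHep, at least -12.41. Cps1, the entry enzyme, read 4.09 and -5.44. The smaller gaps lay in enzymes that other cells also use: Ass1 read 3.79 on MF, 2.02 on iHep and 6.14 on PH, and the mitochondrial carrier Slc25a13 -1.27, -0.54 and 1.43. Amino acid breakdown was lower for 42 of 46. Cth, which makes cysteine from cystathionine, was the clearest exception: it read -1.46 on MF, 2.84 on iHep and 3.32 on PH.

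In glucose metabolism, 22 of 25 genes were lower. Pck1, which starts gluconeogenesis in the cytosol, read 5.87 on PH and was not above background on iHep, at least -13.19. Its mitochondrial counterpart Pck2 was higher in iHep, at -0.67 against -3.95 on PH and -2.42 on MF. G6pc, which releases free glucose, read 3.55 on PH and -4.46 on iHep. Got1 was within 2-fold, at 4.01 and 4.83.

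Lipid metabolism was closer. Fatty acid oxidation and ketone body genes were lower for 33 of 39, but with a median of -2.42 and 16 of them by 8-fold or more. Fabp1, the fatty acid binding protein of liver, was among the widest gaps at -11.57, whereas Acadl (2.08 on iHep and 2.89 on PH) and Hadha (-1.51 and -1.26) were within 2-fold. Fgf21, a hormone the fasted liver secretes, was higher, at -4.91 on MF, -0.34 on iHep and -1.94 on PH. Fatty acid and triglyceride synthesis had 19 lower, 7 within 2-fold and 6 higher of 32. The lipid droplet coat Plin2 read 4.43 on iHep and 4.65 on PH, and acetyl-CoA carboxylase Acaca 3.29 and 3.36. Scd2, the desaturase of non-hepatic tissues, was higher by 5.3, and the liver form Scd1 was lower by 3.69. Cholesterol synthesis and uptake had 18 lower, 8 within and 2 higher (Srebf2 and Lss) of 28. Sqle read 3.53 and 3.07 and Cyp51 1.13 and 0.7, on iHep and PH, while Acat2 was lower by 6.3. Of 28 genes for iron, copper and zinc, 21 were lower. The iron hormone hepcidin (Hamp) read 5.51 on PH and -6.69 on iHep, while the transferrin receptor Tfrc was higher in iHep, at 2.6 against -1.53, and read -0.12 on MF. Antioxidant and peroxisomal enzymes had a median of -0.75, with 14 of 28 within 2-fold, among them Prdx6, Gsr and Txnrd1, and catalase (Cat) lower by 4.84.

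The transcription factors of the hepatocyte network were unevenly reached. Of 27 genes listed, 16 were lower in iHep, 10 within 2-fold and 1 (Lin28b) higher, with a median of -1.58. Lin28b is on the list but encodes an RNA-binding protein, so no transcription factor of the list was called higher. The Lin28b call rests on its brightest probe, since its probes differed by -0.05 to 3.35 and their mean by -0.04. Foxa2 was at the hepatocyte level, at -3.92 on MF, 1.02 on iHep and 1.29 on PH. Hnf4a read -5.62 on MF, 1.04 on iHep and 6 on PH, so iHep stood 6.66 above the fibroblasts and 4.95 below hepatocytes. Gata4 read -2.8, -0.76 and 1.88 on MF, iHep and PH, and Onecut2 -3.61, 0.39 and 3.07. These genes stood between the fibroblast and the hepatocyte reading. Others stayed far below: Foxa1 read -4.99 on iHep and 0.73 on PH, and Foxa3 -5.99 and 0.92. Neither was above background on MF, where the lowest accepted level was -6.3. Foxa1 was higher on iHep than on MF by at least 1.31, while the bound for Foxa3, 0.31, was too short to place it. Cebpa, a factor of the mature liver, was below even the fibroblasts, at -1.56 on MF, -5.76 on iHep and 1.61 on PH. Creb3l3 read 4.88 on PH and -2.81 on iHep, and Prox1 was not above background on iHep. Broadly used factors were at the level of hepatocytes in iHep and fibroblasts alike, such as Atf5 (5.77 on MF, 4.5 on iHep, 5.25 on PH) and Cebpd (4.32, 3.49 and 3.98). The array cannot tell RNA of a resident gene from RNA of the virus where a probe lies in the coding sequence, and the labels do not name the 3 factors.

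**Figure D3:**
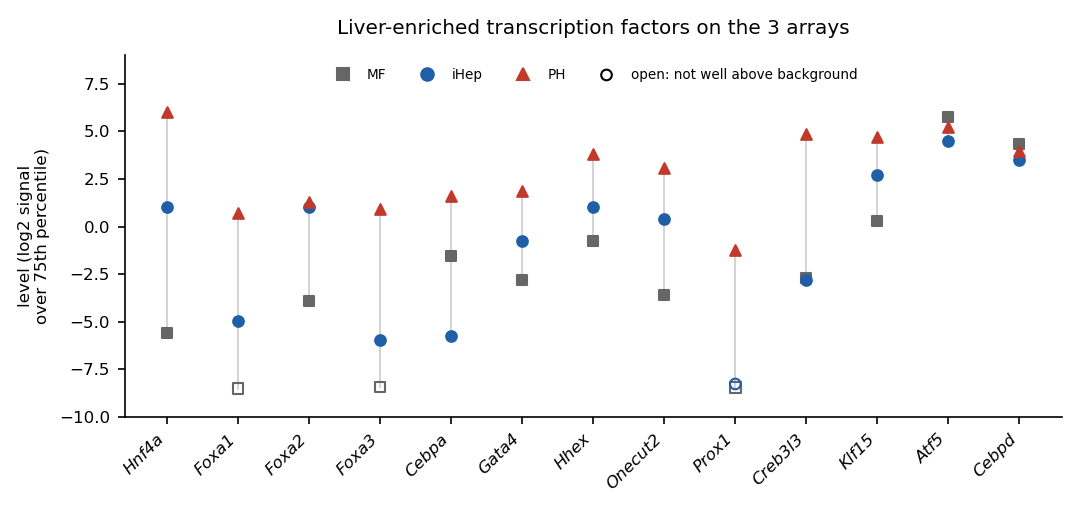
Levels of liver-enriched transcription factor genes on the MF, iHep and PH arrays, as log2 signal over the 75th percentile, with open symbols for signals not well above background. Foxa2 overlaps the PH symbol at 1.02 against 1.29, Hnf4a, Gata4 and Onecut2 lie between MF and PH, and Cebpa lies below both at -5.76.

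Nuclear receptors were lower for 20 of 35 and higher for 7. The fatty acid receptor Ppara read 2.88 on PH and -3.36 on iHep, with probes from -6.25 to -2.29. The bile acid receptor Nr1h4 read -4.63 on MF, -0.72 on iHep and 2.37 on PH. Pparg, the receptor of fat cells, was higher in iHep at 2.47 against -1.01, and so was the vitamin D receptor Vdr at -1 against -6.05. Nr3c1, the glucocorticoid receptor, was within 2-fold at 2.73 and 2.49. By its median of 0.32, the circadian clock was the hepatocyte list nearest to PH. Of its 17 genes 8 were within 2-fold, 6 higher and 3 lower, beside 37.9%, 23.2% and 36.0% of all genes. Clock read 1.29 and 0.71 on iHep and PH, Cry1 0.45 and 0.22, and the clock repressor Ciart 2.49 and -2.66. The time of day of collection is not given in the sources used here. In the growth hormone and IGF system 12 of 21 were lower. Igf1, the growth factor the liver releases, read 4.05 on MF, -2.25 on iHep and 5.97 on PH. The growth hormone receptor Ghr read 2.68, -1.89 and 3.25 in the same order, so for both genes iHep was the lowest of the 3. Igfbp1, a secreted IGF-binding protein, was lower by 12.65.

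Genes of both ends of the liver lobule were missed. Around the central vein, 21 of 25 listed genes were lower, with a median of -6.38, and around the portal tract 23 of 25, with a median of -7.65. Glutamine synthetase (Glul), the pericentral marker, read 3.33 on PH and -1.58 on iHep. Rnf43, a Wnt target that damps Wnt receptors, was within 2-fold of hepatocytes and above the fibroblasts, at -4.2 on MF, 1.31 on iHep and 0.69 on PH. Sox9, listed among periportal genes and a marker of biliary cells, was higher at 2.4 against 0.81, and read 2.72 on MF. All 25 male-biased liver genes compared of 27 were lower, with a median of -9.65, and 15 of 19 female-biased ones, with a median of -4.55 by reading and -2.72 with bounds held. These stand beside the Y-linked signal on PH given above, whose part in them was not tested.

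Across all 28 hepatocyte lists, 26 had a median at or below -1 and 19 at or below -3. Of the 141 hepatocyte genes within 2-fold of PH or higher, 41 (29.1%) were at least 2-fold brighter on iHep than on MF, near the 2745 of 11003 (24.9%) among all genes compared that were within 2-fold of PH or higher. Of the same 141, 76 were within 2-fold of MF and 23 were lower than on MF. The 41 included Foxa2, Cth, Angptl4, Plin2, Cyp39a1, Rnf43, Cry1, Fgf21, Cyp1a1 and the insulin receptor substrate Irs2. They also included Lin28b, whose call rests on its brightest probe. Of the 562 genes that were lower than PH, 103 were at least 2-fold brighter on iHep than on MF and 127 at least 2-fold dimmer. Among all genes compared, those of the lists included, 1922 were at least 8-fold higher on PH than on MF, a choice that leans toward genes high on PH. On iHep 1826 of them were at least 2-fold below PH, 86 were within 2-fold and 10 were higher. Against MF, 627 of the 1922 were at least 2-fold higher on iHep, 152 of them by 8-fold or more, and 222 at least 2-fold lower. These comparisons share the PH and MF arrays, and MF was scanned apart, so the counts describe where iHep stood and are no independent evidence.

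Fetal and progenitor genes were split. Of 24 compared in the fetal liver and oncofetal list, 11 were higher in iHep and 11 lower; the median was -0.92, and 0.22 with quantile normalization or in the authors' values. The 5 widest of the 11 higher genes were Igf2bp1, Hmga2, Igf2bp3, Igf2bp2 and Afp, and the Igf2bp genes encode RNA-binding proteins. Igf2bp1 read 1.33 on iHep and was not above background on PH, at least 8.22 higher. Igf2bp3 read 0.48 on iHep and -6.3 on PH, and the chromatin protein Hmga2 3.92 and -2.94. Both were also above the fibroblasts, at -1.49 and 0.85. Among the lower genes, the proteoglycan Gpc3 read -4.95 on iHep and 1.89 on PH. Igf2 was dim on all 3 arrays and within 2-fold, at -6.5 on iHep and -5.55 on PH. Of 34 cholangiocyte and progenitor markers, 11 were higher, 16 lower and 7 within 2-fold. Spp1, which encodes osteopontin, read 3.06 on iHep and -0.09 on PH, and Lamb3 2.94 and -0.15, while Epcam was not above background on iHep.

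The keratins Krt18 and Krt8 were at the hepatocyte level. Krt18 read -0.66 on MF, 3.66 on iHep and 3.98 on PH, and its partner Krt8 -4.14, 0.91 and 0.64. Krt19, a keratin of bile ducts that adult hepatocytes lack, was higher at 0.85 against -1.48, and Krt20, found in gut lining and urothelium, at 1.53 against -6.35. Cell junction genes were further off, with 32 of 47 lower. The hepatocyte gap junction gene Gjb2 and the tight junction gene Cldn3 read 4.5 and 4.54 on PH and were not above background on iHep. E-cadherin (Cdh1) read -6.53 on MF, -1.12 on iHep and 1.68 on PH. Tjp1, a scaffold of tight junctions, was within 2-fold at 2.54 and 2.2, and the kidney cadherin Cdh16 was higher by 6.01. A few markers of other epithelia were also higher in iHep, among them Pax8 of kidney and thyroid by 3.66, villin (Vil1) of the gut by 4.93 and the lung aquaporin Aqp5 by 7.68. Most genes of those lists were not higher. The counts were 4 of 15 kidney, 4 of 18 intestinal and gastric and 2 of 13 lung and airway markers, beside 23.2% of all genes. More of each list were lower, at 6, 11 and 6 in the same order, beside 36.0% of all genes.

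Cell division exceeded the hepatocyte level. Of 38 mitosis genes 37 were higher in iHep, against 23.2% of all genes, 1 (Cenpf) had a bound too short to place, and the median of 4.31 was the highest of the 71 lists. Mki67, the proliferation marker, read 0.43 on MF, 2.19 on iHep and -2.05 on PH. The spindle checkpoint kinase Bub1 read -0.79, 2.18 and -3.87, and Aurka, a kinase of spindle poles, -0.03, 3.07 and -2. All 37 were also at least 2-fold brighter on iHep than on MF. DNA replication genes were higher for 29 of 38, with a median of 2.16. Rrm2, which makes deoxynucleotides, read 2.56 on MF, 3.63 on iHep and -1.16 on PH, and the helicase subunit Mcm2 0.72, 3.16 and -0.87. Lig1 and Tyms were lower by 2.91 and 2.58. CDK inhibitor and p53 target genes were higher than PH for 18 of 28, a group the fibroblasts also held: Cdkn2a read 4.77 on MF, 0.71 on iHep and -4.95 on PH, and Cdkn2b 3.43, 0.86 and -3.67.

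Serine, one-carbon and amino acid stress genes were higher for 22 of 30, with a median of 2.65. Phgdh, the first enzyme of serine synthesis, read 1.59 on MF, 3.75 on iHep and -2.43 on PH, and Psat1, the next, 2.7, 4.46 and -1.45. Mthfd1l of mitochondrial folate metabolism read -0.57, 2.21 and -3.91, and the arginine carrier Slc7a3 -2.26, 2.95 and -3.97. Aldh1l1, the folate enzyme of liver, went the other way, at -0.16 on iHep and 5.85 on PH. Glycolysis was mostly level, with 12 of 23 within 2-fold and 8 higher. The higher ones included the hexokinase Hk2, an isoform of growing cells, at 3.17 against -0.33 and the pyruvate kinase Pkm at 3.32 against -0.35. Of 30 growth signal ligands and receptors, 12 were higher and 17 lower. The widest of the higher ones were the EGF-family ligands Ereg, which read -1.23, 2.12 and -6.35 on MF, iHep and PH, and Areg, at -5.13, 1.31 and -6.47, while Tgfa, of the same family, was within 2-fold at -3.55 on iHep and -2.99 on PH. Hippo pathway and stretch targets were higher for 13 of 22, led by Ankrd1 at 3.4 against -4.48.

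Housekeeping functions matched best. Ribosomal protein genes were within 2-fold for 29 of 34 with a median of 0.01, the respiratory chain and ATP synthase for 36 of 43 with a median of -0.69, and endoplasmic reticulum folding and secretory genes for 21 of 27 with a median of -0.47. Cycs, the cytochrome c gene, read 4.5 on iHep and 4.48 on PH, and Calr, the chaperone calreticulin, 3.81 and 3.71. Interferon-stimulated genes were within 2-fold for 14 of 30 and higher for 12, among them Usp18 at 2.54 against -1.61. Chemokines were divided: Ccl7 read 5.53 on MF, 4.59 on iHep and -3.56 on PH and Ccl2 5.17, 4.93 and 0.03, whereas Cxcl12 was not above background on iHep and lower than PH by at least 10.49.

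**Figure D4:**
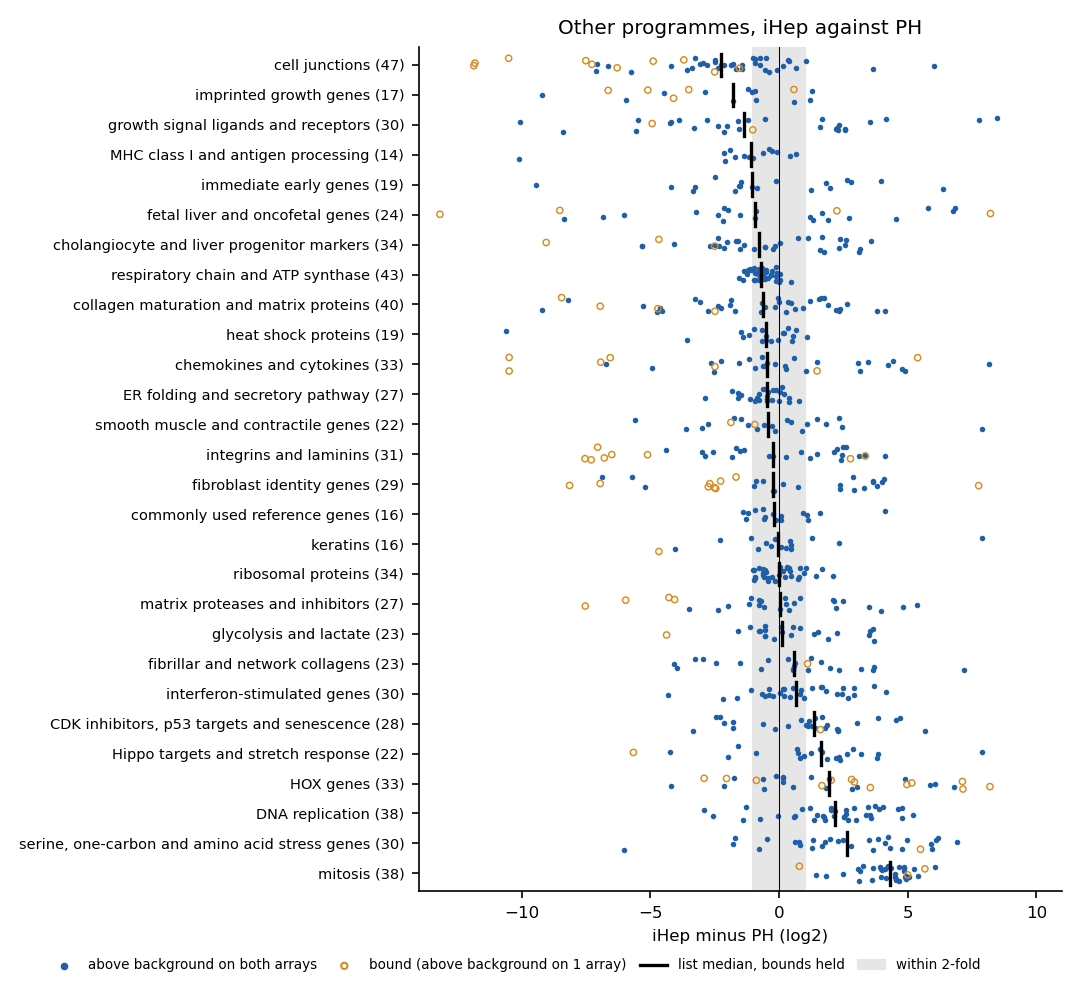
Each row is a list of other genes with the number compared, each point a gene's difference between iHep and PH (log2), open points are bounds and black bars medians with bounds held. Mitosis (median 4.31) and serine and one-carbon genes (2.65) lie furthest right, and ribosomal proteins (0.01) lie within the grey band of 2-fold.

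Fibroblast genes were split between iHep and PH. The fibroblast identity list had 11 higher, 11 lower and 7 within 2-fold of 29. Among all genes, 23.2% were higher and 36.0% lower. The list's median was -0.22, and 1.55 over the genes measured on both arrays, and its summed signal was 6.84 on iHep and 5.28 on PH. Fibrillar and network collagens had 10 higher and 6 lower of 23, with a median of 0.59. Collagen maturation and matrix proteins had 11 higher and 18 lower of 40, with a median of -0.62. Col1a1, the main fibrillar collagen, read 7.09 on MF, 4.62 on iHep and 3.99 on PH, and vimentin (Vim) 6.28, 4.48 and 3.74, so both were within 2-fold of the hepatocyte array. Pdgfrb remained higher in iHep, at 3.68 against -0.32, and so did Fbln2 at 3.58 against -0.54. Others were below PH: Thy1 read 6.84 on MF, -6.15 on iHep and 0.72 on PH, and decorin (Dcn) 2.71, -5.45 and 3.76. Markers of hepatic stellate cells were among the genes present on PH, as given next. HOX genes, which keep a record of body position, were higher in iHep for 20 of the 33 compared of 39, with a median of 1.96. Hoxc6 read 2.88 on MF, 1.51 on iHep and -5.3 on PH, and Hoxa7 1.7, 2.27 and -3.59. Hoxb13, Hoxc9 and Hoxd8 were not above background on PH, and higher by at least 8.2, 7.15 and 7.13. On MF and iHep, Hoxb13 read -4.97 and 1.31, Hoxc9 1.52 and 0.26, and Hoxd8 -1.33 and 0.24. Hoxb13 and Hoxd8 were thus brighter on iHep than on MF, and Hoxc9 was dimmer.

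The PH array also carried markers of other cell types. Of 29 pancreatic acinar markers, 26 were compared and all were above background on PH and lower in iHep, with a median of -9.91; their summed signal was 9.83 on PH, 1.39 on iHep and -0.33 on MF. Pancreatic lipase (Pnlip) read 6.56 on PH, among the 20 brightest genes of the array, and Ptf1a, the acinar transcription factor, -1.98. Macrophage and Kupffer markers were lower for 24 of 25, with a summed signal of 7.28 on PH, 2.08 on iHep and 7.03 on MF, and the Kupffer marker Clec4f read 3.01 on PH and was not above background on iHep or MF. Endothelial markers were lower for 23 of 25, with summed signals of 7.47 on PH and 3.89 on iHep, erythroid markers for 12 of 14, with 6.8 and 2.81, neutrophil markers for 11 of 11, with 6.47 and 3.85, and lymphocyte markers for 16 of 19, with 6.15 and 2.52. Stellate cell markers were lower for 14 of 18, with 5.33 and 2.74. MHC class II and dendritic markers were lower for 9 of 11, with 6.08 and 4.5, and islet markers for 10 of 11, with 2.27 and -0.66. Cardiac markers were lower for 8 of 18 and higher for 3. Mesothelial markers were lower for 6 of 10, all 6 by 8-fold or more, and higher for 2, with a median of -5.51 that was 0.4 over the genes measured on both arrays. Less RNA of a type and fewer cells of it cannot be told apart in such pools, and the part of these cells in the gaps above was not tested. The lists named as hepatocyte functions hold genes that endothelial cells, macrophages or stellate cells also make, such as C3, Igf1 and Apoe, which macrophages make.

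Of the 2353 genes lower by 8-fold or more, 405 were on the hepatocyte lists. Of the 200 genes with the brightest probes on PH, 175 were lower in iHep, 78 by 8-fold or more, 25 were within 2-fold and 0 higher. Ranking by PH leans this count toward lower. The reverse ranking leans the other way, so it does not measure how large that lean is. Of the 200 brightest on iHep, 122 were within 2-fold on PH, 16 higher in iHep and 62 lower in iHep. The top 200 of both arrays shared 82 genes. Of the 68 hepatocyte-function genes in the PH top 200, all 68 were lower in iHep and 58 of them by 8-fold or more. The other 132 included 20 lower by 8-fold or more. Since the 175 lower genes include these 68, most of the other 132 were also lower at 2-fold. Being lower at 2-fold was therefore not particular to the hepatocyte genes of this ranking. The 15 genes of the PH top 200 nearest to equal included genes of general use, such as Rpl36 (5.74 on iHep, 6.12 on PH), Eno1 (5.61 and 6.15), Gapdh (5.47 and 6.03) and Hspd1 (5.1 and 5.77), and all 15 were dimmer on iHep. The top of the iHep scale was lower, 5.76 against 6.98, and over 10 bins of mean brightness, each of 1574 or 1575 genes measured on both arrays, the median difference was -0.9 in the dimmest bin, -1.09 in bin 2, 0.48 in bin 7 and -0.42 in the brightest. With quantile normalization, 108 of the 200 were within 2-fold or higher, so for the brightest genes a call at 2-fold depends on the scaling. Several of the brightest probes carry names of genes with narrow tissue use, such as Gcm1 (5.98 on MF, 5.71 on iHep, 6.66 on PH) and Dcc (6.11, 5.46 and 6.45), and differed by less than 2-fold between iHep and PH, at -0.95 and -0.99; what they measure was not tested.

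**Figure D5:**
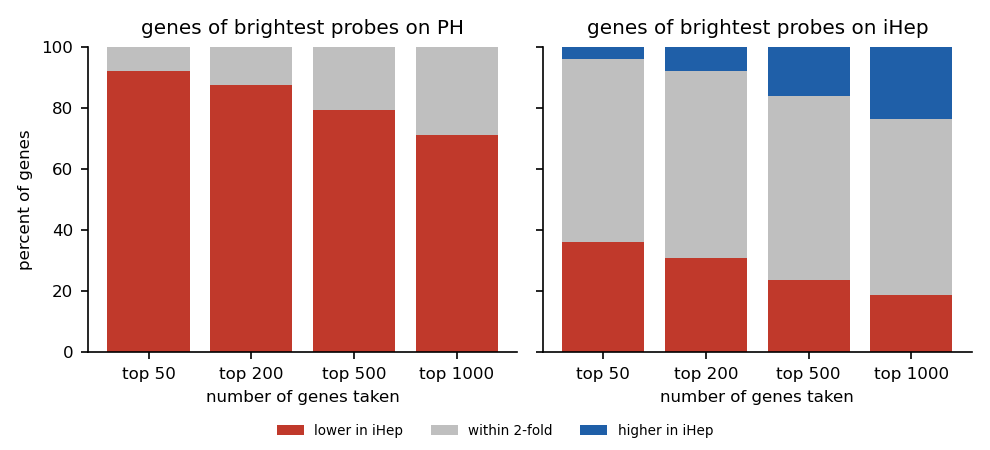
Share of genes lower, within 2-fold or higher in iHep among the 50, 200, 500 and 1000 genes of brightest probes, ranked on PH at left and on iHep at right. Of the PH top 200, 175 were lower in iHep; of the iHep top 200, 122 were within 2-fold.

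Among single genes, the widest measured excess of iHep over PH was Pnma5, at 3.8 against -6.71, a difference of 10.51. Vgf, a secreted neuroendocrine protein, was higher by 8.09 and Rpl39l, a ribosomal protein variant of testis, by 8.11. Megf10, an engulfment receptor, was not above background on PH and higher by at least 9.23. The cardiac troponin gene Tnnt2 read -3.59 on MF, 1.68 on iHep and -4.5 on PH. At the other end, after Serpina3k, came the pancreatic elastase Cela3a at -13.23, then Vtn, the retinol dehydrogenase Rdh7 at -13.02 and the protease inhibitor Mug2 at -12.96. Of the 10 widest, Cela3a and Reg2 are genes of the exocrine pancreas. Among genes above background on 1 array alone, 704 were at least 8-fold brighter on PH and 132 at least 8-fold brighter on iHep.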

How the data were processed

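RNA of 3 pools was hybridised to 1 single-colour (Cy3) Agilent mouse array each, and groups were taken from the sample titles. Per the labels' protocols, RNA was extracted with a kit for blood and depleted of globin RNA, which bears on the erythroid genes. The authors deposited scanner files of spot intensity on a linear scale, background-subtracted within the array and not normalized between arrays, made with Agilent Feature Extraction 11.0.1.1 and annotated on mm9, per the file headers; the submitters' processing notes name version 9.1. Their processed value table holds log2 values, deposited with scale and centring unstated, whose columns share a highest value of 17.37 and correlated at 0.9982 (iHep) and 0.9943 (PH) with the scanner values.

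Non-control spots without outlier flags were taken as log2 intensity minus the array's 75th percentile, which was a signal of 3751.5 on iHep and 2080.9 on PH. Spots of a probe were averaged, probes were named by accession through the RefSeq table of GRCm38.p6 (27234 of 39429), and the brightest probe stood for a gene. A gene above background on 1 array gave a bound. The values were processed with pandas 2.3.3 and normexp background correction was run with limma 3.58.1, on the median signal columns. The calculation was run on simulated data, with the PH array as both sides and known folds given to single-probe genes above background. That simulation did not cover dim genes, bounds or genes whose probes disagree, so it does not measure the error of the calls. The arrays being single, their number limits the precision.

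The members and the 71 gene lists were chosen with earlier results of these data known. Genes named are anchors, the 10 widest measured differences and 10 widest bounds each way, the 20 brightest of each array, the 15 nearest of the PH top 200, and for each list the 5 widest each way and the 5 brightest within 2-fold. A further 17 genes, namely Ass1, Cdh1, Cenpf, Cp, Cry1, Epcam, Glul, Hoxa7, Hp, Lcn2, Nr1h4, Onecut2, Ptf1a, Rarres2, Rbp4, Scd1 and Slc25a13, were picked with their values in view. Some genes that meet the rule are not reported here. The alternatives tried were background correction, scaling, the authors' values, filters, probe rules, flags and thresholds.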

Additional observations from a re-analysis of the deposited data

How the results depend on the processing

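Neither of the hepatocyte-gene counts (562 lower, 141 at or above PH) moved by more than 1.5 times under any alternative run, and their median of -4.01 was -4.18 as the mean of probes, -3.82 with bounds held, -3.78 centred on probes above background on both arrays, -3.75 in the authors' values, -3.6 with normexp, -3.56 with quantile normalization and -3.24 over genes measured on both arrays. Over all genes, a threshold of 4-fold left 1808 higher, 3853 lower and 11280 within, and one of 1.5-fold 4118 within; the authors' values, which cover 13070 of the genes, gave 3216 lower. The count of PH top 200 genes reached, 25, was 108 with quantile normalization, 100 in the authors' values and 109 at 4-fold, and was 4 of the top 50 and 104 of the top 500. Of 567 list medians recomputed, 218 moved beyond the error that the spread between probes gives a median of that many genes. Of medians of at least 2-fold, 2 changed sign: mesothelial markers to 0.4 over genes measured on both arrays, and intestinal and gastric markers to 0.29 in the authors' values. Smaller medians changed sign 28 times, over 14 lists, none of them a hepatocyte list, including fetal liver genes (0.22 with quantile normalization) and fibroblast identity genes (1.55 over genes measured on both arrays). Of 846 values of named genes, 71 moved beyond the spread between probes and 1 reversed, Lin28b at -0.04 as the mean of its probes. The thresholds and gene numbers set their own counts; for the other changes the cause was not tested. No paired analysis was possible because each group is 1 array. No replicate could be left out. Dim genes are limited by background, with the lowest accepted level at -7.32 on iHep, -6.89 on PH and -6.3 on MF.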
